A study of Mus musculus with 12 samples.

Results

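The TGF-beta ligands, receptors and Smads were followed across 3 mouse cell lines as a list of 10 genes: the ligands Tgfb1, Tgfb2 and Tgfb3, the receptors Tgfbr1, Tgfbr2 and Tgfbr3, and the signal carriers Smad2, Smad3, Smad4 and Smad7. The members were chosen by gene symbol, with earlier results of these data known, and the rule used no measured value. Of the 10, 9 were measured, by 10 targets with 30 probes, out of 25128 genes and unmatched targets on the array. No target was matched to Smad7, which was not analysed here. RNA came from 4 plates labelled AtT20 (a pituitary tumor line), 4 plates of BV2 (a microglial line) and 4 plates of N18 (a neuroblastoma line). All 12 plates held untreated cells in DMEM with 10% FBS, and each plate gave 1 array. Each group is 1 immortalized line, so the p-values measure the spread between separately grown plates. The fit took 1 estimate of that spread per gene from all 12 arrays. The question the samples answer is which components of the pathway each line transcribes, and how the lines differ.

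TGF-beta is secreted in a latent form and, once released, binds Tgfbr2, the type II receptor, a kinase that activates the type I receptor Tgfbr1. Tgfbr1 phosphorylates Smad2 and Smad3, which join Smad4 and enter the nucleus to regulate transcription. Tgfbr3, or betaglycan, is a coreceptor that presents ligand, above all Tgfb2, to the signaling receptors, and Smad7 is an inhibitor of the type I receptor. In the brain, TGF-beta is known for keeping microglia in their homeostatic state. In neuroblastoma and other tumor cells the pathway is known for its control of growth and of matrix genes.

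The results turn on 2 members that were higher in BV2 (Tgfb1 and Tgfbr2) and on members that were higher in N18 (among them Tgfb2 and Tgfbr1). Their promoters are shown, since the members of 1 pathway differed in opposite directions. Each sequence is the 250 bases before the transcript start in the RefSeq table (build GRCm38.p6), read 5′ to 3′ on the strand of the gene. For Tgfb2 that start lies inside the annotated span of the gene. Capitals mark each match, on either strand, to 1 of 3 motifs: GGGCGG (the GC box bound by Sp1), TATAAA (the TATA box) and GAGGAA (the core bound by PU.1, the factor encoded by Spi1). The promoter of Tgfbr3 was not in that table.
Tgfb1 (chr7:25686752-25687001, plus strand): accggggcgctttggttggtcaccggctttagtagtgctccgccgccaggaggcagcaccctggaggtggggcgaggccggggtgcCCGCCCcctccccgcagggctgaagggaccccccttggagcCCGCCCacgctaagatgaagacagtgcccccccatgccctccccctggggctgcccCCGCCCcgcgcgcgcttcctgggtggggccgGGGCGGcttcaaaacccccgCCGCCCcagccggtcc
Tgfbr2 (chr9:116175364-116175613, minus strand): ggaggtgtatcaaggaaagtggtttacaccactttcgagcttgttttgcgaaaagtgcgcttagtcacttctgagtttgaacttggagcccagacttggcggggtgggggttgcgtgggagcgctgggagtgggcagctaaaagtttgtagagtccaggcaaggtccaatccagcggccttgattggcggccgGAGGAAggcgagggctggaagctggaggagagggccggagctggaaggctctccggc
Tgfb2 (chr1:186705990-186706239, minus strand): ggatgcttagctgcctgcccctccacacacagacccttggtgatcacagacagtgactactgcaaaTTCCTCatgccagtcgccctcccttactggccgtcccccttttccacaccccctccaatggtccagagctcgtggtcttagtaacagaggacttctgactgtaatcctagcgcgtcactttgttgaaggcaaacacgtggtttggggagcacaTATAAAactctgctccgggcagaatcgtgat
Tgfbr1 (chr4:47352972-47353221, plus strand): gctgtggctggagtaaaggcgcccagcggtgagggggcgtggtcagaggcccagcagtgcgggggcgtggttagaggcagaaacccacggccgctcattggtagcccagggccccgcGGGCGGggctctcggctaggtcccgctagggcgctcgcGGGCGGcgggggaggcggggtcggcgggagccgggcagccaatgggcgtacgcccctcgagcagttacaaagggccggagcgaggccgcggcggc

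The Tgfb1 window held 5 GC boxes and the Tgfbr1 window 2, whereas the Tgfbr2 and Tgfb2 windows held 0. A GC box was present in 32.7% of 32851 promoter windows of the same length. Tgfb2 had 1 TATA box, a motif found in 12.4% of the windows. The GAGGAA core was found once in the Tgfbr2 window and once in the Tgfb2 window, against 23.3% of all windows. These matches describe letters in the window and not binding.

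Levels are log2 intensities of a gene's probes, set relative to the mean of 10 seminal proteins measured on the same array, which serve as the zero of expression. A gene was above the threshold when its mean level over 4 plates exceeded 2 SD of the seminal proteins, which came to 0.74 ± 0.10 in N18 (SD, n = 4 plates), 0.56 ± 0.15 in BV2 and 0.37 ± 0.11 for the AtT20 plates. Probes of different genes bind differently, so levels were compared between lines and not between genes. In bulk RNA, fewer expressing cells and less RNA per cell cannot be told apart.

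Cell type markers fitted 2 of the labels. In BV2, 7 of 9 microglia markers were above the threshold, with Csf1r at 4.70 and Spi1 at 4.06, although Aif1 and Cx3cr1 were below it. In N18, 9 of 10 neuroblastoma markers were above the threshold, with Gap43 at 5.05 and Stmn2 at 4.48. Of the same 10, 6 were above it on the AtT20 arrays and 5 in BV2, and some ran the other way: Nefl was at -0.086 in N18 and 4.46 in AtT20, Nefm at 1.78 and 2.87, and Th at 0.99 in N18 and 1.20 in BV2. On the plates labelled AtT20, 2 of 10 corticotroph markers were above the threshold (Pitx1 and Cpe), and Pomc (0.29), Tbx19 (0.02) and Pcsk1 (0.14) were below it. The summed level of the 10 corticotroph markers was 1.54 to 3.74 on those plates and 14.9 to 17.0 in N18. Microglia markers summed to at most 0.52 on the plates labelled AtT20 and 3.36 in N18, against 25.6 to 31.3 in BV2. Of 8 fibroblast markers, 5, 3 and 5 were above the threshold in AtT20, BV2 and N18. The interquartile range over probes was 0.38 to 0.78 on the arrays labelled AtT20, 1.28 to 1.73 in BV2 and 1.91 to 2.21 in N18, so the AtT20 arrays spread values over a narrower scale. Which plates shared a slide is not given in the sources used here, and an effect of the slide was not tested.

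Most of the measured members were above the threshold in BV2 and N18. Above the threshold were 8 of 9 measured members in N18 (all but Tgfbr2), 7 of 9 in BV2 (all but Tgfb2 and Tgfbr3) and 5 of 9 in AtT20 (Tgfb1, Tgfb3, Tgfbr2, Smad2 and Smad4). Across all genes and targets the share above the threshold was 55.4%, 53.3% and 35.0% in the same order. On every plate of the line, 8 members were above that plate's threshold in N18, 6 in BV2 and 4 in AtT20. The receptors that did not reach the threshold differed between the lines: Tgfbr2 in N18, Tgfbr3 in BV2, and both Tgfbr1 and Tgfbr3 in AtT20.

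**Figure D1:**
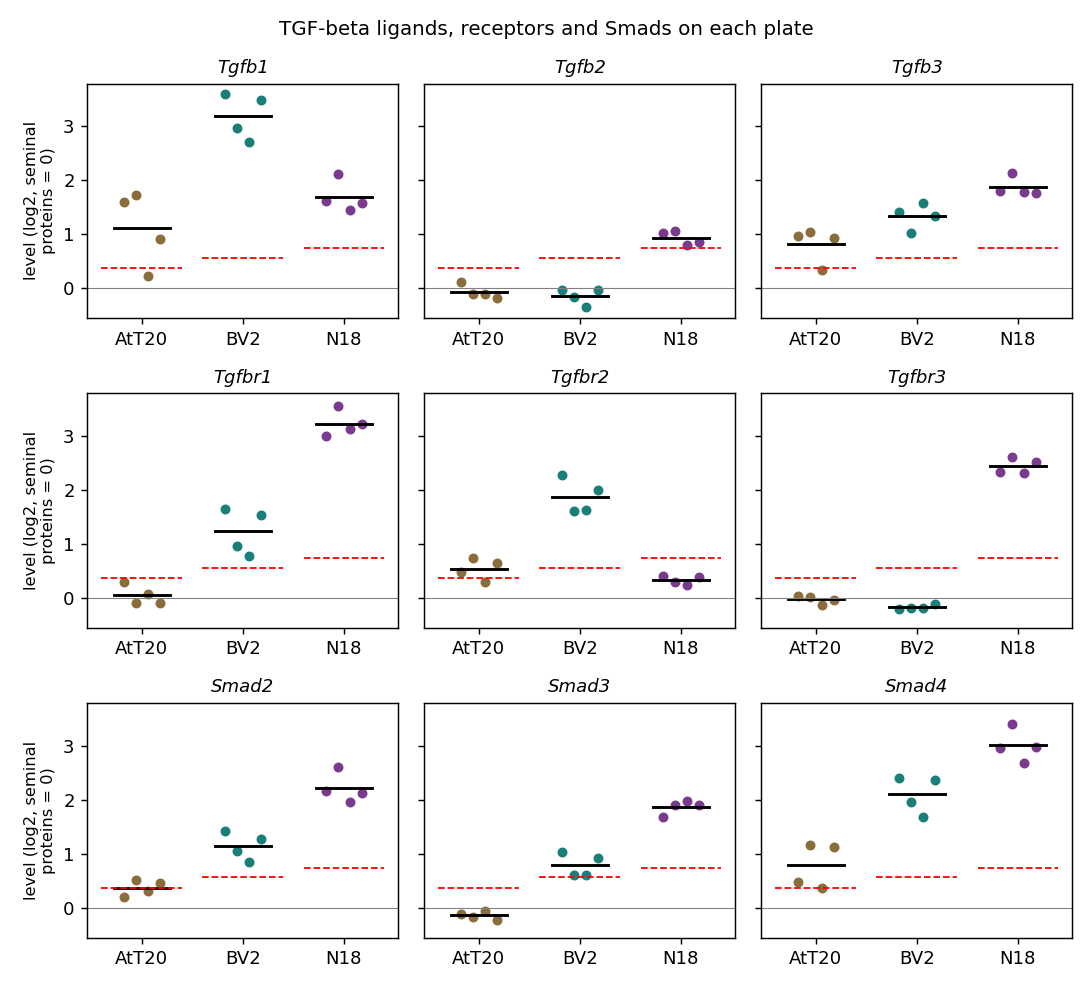
Level of the 9 measured members (vertical axis, log2 relative to the seminal proteins) on each of the 12 plates, by line. Points are plates, black bars are means of 4 plates and red dashed lines are the detection threshold of each line. Tgfb1 and Tgfbr2 were highest in BV2, and the other 7 members were highest in N18 on this scale.

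Lines were then compared gene by gene after quantile normalization of the 12 arrays, with limma and Benjamini-Hochberg adjustment over all 25128 genes and targets. Between N18 and BV2, 7 of the 9 members (77.8%) passed an adjusted p of 0.05, beside 40.9% of all genes and targets. Tgfb2, Tgfbr1, Tgfbr3, Smad2 and Smad3 were higher in N18 (5 of 9, beside 19.0% of all), and Tgfb1 and Tgfbr2 were lower (2 of 9, beside 21.9%). The plates of these 7 members did not overlap between the lines, which held for 55.4% of all genes and targets. All 7 were also called, with the same sign, when levels were set against the seminal proteins and when no normalization was applied. With only the 8 arrays of the pair in the fit, 15554 genes and targets were called, in place of 10270. The median difference of the 9 members, N18 minus BV2, was 0.43 on the log2 scale, beside -0.06 for all genes and targets. Scaling moved that background: the median of all was 0.18 on the seminal protein scale and 0.15 with no normalization, and the share of calls higher in N18 was 46.5%, 74.7% and 80.2% in turn.

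Tgfb1, the most widely expressed of the ligands and the one known from immune cells, was the ligand that marked BV2. Its levels on the 4 plates were 3.60, 2.96, 2.71 and 3.49 in BV2. They were 1.62, 2.11, 1.45 and 1.58 in N18. They were 1.59, 1.72, 0.23 and 0.91 on the plates labelled AtT20. Every BV2 plate thus lay above every plate of the other 2 lines, and the AtT20 plates were the most spread. N18 was 3.72-fold below BV2 after quantile normalization (log2 difference -1.90, SE 0.17, adjusted p = 1.36e-07, limma). All 3 Tgfb1 probes were higher in BV2 than in N18.

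Tgfb2, the ligand that depends most on betaglycan, was above the threshold in N18 only. Its levels in N18 were 1.01, 1.07, 0.80 and 0.86. In BV2 they were -0.04, -0.17, -0.36 and -0.03. On the plates labelled AtT20 they were 0.12, -0.12, -0.11 and -0.18. On the seminal protein scale the N18 plates were apart from the rest. After quantile normalization AtT20 plate 1 (10.73) lay above every N18 plate (10.53 to 10.62). The difference of N18 from BV2 was then 0.68 (SE 0.13, adjusted p = 0.000673, limma). The N18 signal was carried by 1 of 3 probes above the threshold, and its detection there was lost when the median of the probes, olfactory receptor genes as controls, 3 SD or at least 2 probes were required. The BV2 level has only an upper bound. Over 3 scalings the smallest lower bound of the difference was 0.047 on the log2 scale, so no fold is given.

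Tgfb3, a ligand known from epithelial and mesenchymal development, was above the threshold in all 3 lines. It read 1.81, 2.13, 1.77 and 1.76 in N18. It read 1.41, 1.03, 1.58 and 1.33 in BV2. It read 0.97, 1.05, 0.33 and 0.94 on the plates labelled AtT20. On this scale the N18 plates were above all BV2 plates, but after quantile normalization the lines overlapped. The difference was then -0.011 (95% interval -0.27 to 0.25, adjusted p = 0.952), against 0.53 relative to the seminal proteins (adjusted p = 0.0186, limma). No order of BV2 and N18 is therefore given for Tgfb3.

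Among the receptors, 1 was highest in BV2 and the others in N18 on the seminal protein scale. Tgfbr2, the type II receptor that binds ligand first, was read by 2 targets and 6 probes. Its levels in BV2 were 2.27, 1.61, 1.64 and 2.00. In N18 they were 0.40, 0.30, 0.25 and 0.39, and none reached the threshold. For the plates labelled AtT20 they were 0.47, 0.74, 0.29 and 0.64. BV2 was apart from both other lines, and it was at least 2.2-fold above N18 (measured log2 difference -1.53, SE 0.10, adjusted p = 1.32e-09, limma). Each of the 6 probes was higher in BV2 than in N18. All 6 were above the threshold in BV2, and 1 was above it in N18 (0.80 ± 0.08, SD, n = 4 plates). The 2 targets gave 1.53 ± 0.35 and 2.23 ± 0.31 in BV2, 0.08 ± 0.13 and 0.58 ± 0.07 in N18 (SD, n = 4 plates), so both were above the threshold in BV2 and neither in N18. On the plates labelled AtT20, 1 target was above (0.80 ± 0.32) and the other was not (0.27 ± 0.14).

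Tgfbr1, the type I receptor kinase that phosphorylates Smad2 and Smad3, ran the other way. Its levels were 2.99, 3.55, 3.14 and 3.23 in N18. They were 1.65, 0.96, 0.78 and 1.54 in BV2. They were 0.29, -0.09, 0.07 and -0.09 on the plates labelled AtT20. The 3 lines did not overlap on this scale, in the order N18, BV2, AtT20, and all 3 probes were above the threshold in both N18 and BV2 and none in AtT20. N18 was 2.39-fold above BV2 after quantile normalization (log2 difference 1.26, SE 0.19, adjusted p = 4.52e-05, limma). The log2 difference was 1.99 on the seminal protein scale and 1.96 with no normalization. N18 was at least 2.1-fold above the plates labelled AtT20 (measured log2 difference 1.86, adjusted p = 1.54e-07).

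Tgfbr3, the coreceptor betaglycan, was above the threshold in N18 only. Its levels in N18 were 2.34, 2.61, 2.32 and 2.52. In BV2 they were -0.21, -0.18, -0.18 and -0.11. On the plates labelled AtT20 they were 0.04, 0.01, -0.13 and -0.03. BV2 and AtT20 were thus at the level of the seminal proteins, and all 3 probes were above the threshold in N18 and none in the other lines. N18 was at least 2.2-fold above BV2 (measured log2 difference 1.80, SE 0.11, adjusted p = 7.74e-10, limma) and at least 1.3-fold above the plates labelled AtT20 (measured log2 difference 1.36, adjusted p = 7.56e-09). Tgfb2 and Tgfbr3, the ligand and the coreceptor that presents it, were therefore both above the threshold in N18 alone. The 2 were not equally firm: detection in N18 was kept under 12 of 12 alternatives for Tgfbr3. For Tgfb2, with 1 of 3 probes above the threshold, it was kept under 8 of 12.

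**Figure D2:**
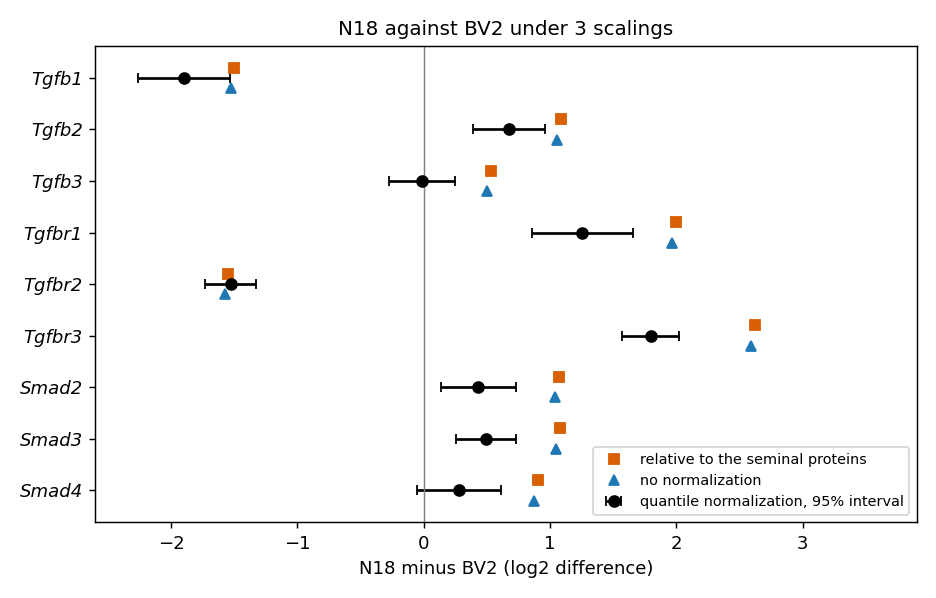
Log2 difference of each measured member, N18 minus BV2 (horizontal axis), after quantile normalization with its 95% interval and under the other 2 scalings. Tgfb1 and Tgfbr2 lie below 0 and Tgfb2, Tgfbr1, Tgfbr3, Smad2 and Smad3 above 0 under every scaling, while Tgfb3 changes side.

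The 3 measured Smads, which carry the signal to the nucleus, were highest in N18 on the seminal protein scale. Smad3, a receptor-activated Smad that binds DNA, read 1.68, 1.91, 1.99 and 1.91 in N18. It read 1.04, 0.61, 0.60 and 0.92 in BV2. It read -0.12, -0.17, -0.05 and -0.23 on the plates labelled AtT20. The lines did not overlap, and N18 was 1.41-fold above BV2 (log2 difference 0.49, SE 0.11, adjusted p = 0.00191, limma), with a log2 difference of 1.08 on the seminal protein scale. In BV2, 3 of 4 plates were above their own threshold, and detection there was lost with olfactory receptor genes as controls, with 3 SD and with all 4 plates required.

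Smad2, the other receptor-activated Smad of this branch, read 2.16, 2.61, 1.97 and 2.13 in N18. It read 1.42, 1.06, 0.85 and 1.27 in BV2. It read 0.19, 0.52, 0.30 and 0.45 on the plates labelled AtT20. On this scale no plate of 1 line overlapped another line. After quantile normalization N18 was 1.35-fold above BV2 (log2 difference 0.43, SE 0.14, adjusted p = 0.021, limma), a call lost without BV2 plate 3 (adjusted p = 0.0762) or N18 plate 2 (adjusted p = 0.0701) and with the median of the probes. On the seminal protein scale the difference was 1.07 (adjusted p = 2.12e-05). The AtT20 mean of 0.37 lay at the threshold, and that detection was lost under most of the alternatives.

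Smad4, the partner shared by all receptor-activated Smads, was above the threshold in the 3 lines. It read 2.97, 3.40, 2.69 and 2.98 in N18. It read 2.41, 1.96, 1.69 and 2.37 in BV2. It read 0.48, 1.16, 0.37 and 1.12 on the plates labelled AtT20. N18 lay above BV2 on this scale (difference 0.90, adjusted p = 0.00394, limma), but after quantile normalization the lines overlapped and the difference was 0.28 (95% interval -0.05 to 0.61, adjusted p = 0.173). With only the 8 arrays of the pair in the fit, the difference of 0.29 passed (adjusted p = 0.0413, limma), so the call depends on the fit as well as on the scaling.

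**Figure D3:**
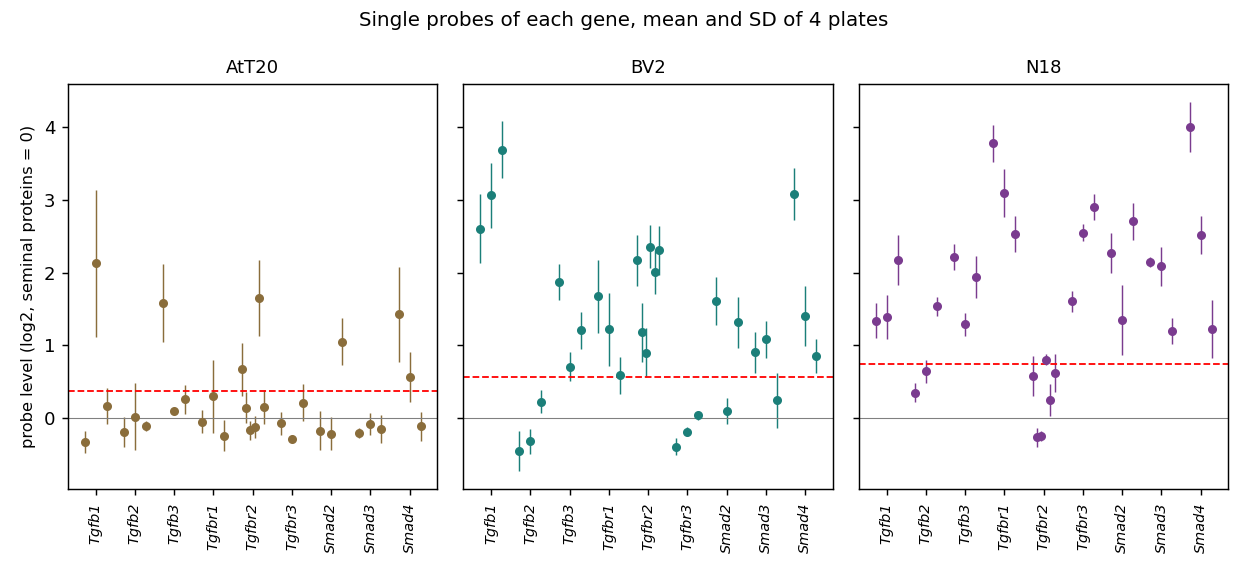
Level of each of the 30 probes of the members (log2 relative to the seminal proteins, mean ± SD of 4 plates), by line, with red dashed lines at the detection threshold. On the AtT20 arrays 1 Tgfb1 probe stood at 2.13 while the other 2 stood at -0.33 and 0.17, whereas in BV2 all 3 were above 2.

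Of the 5 members above the threshold on the plates labelled AtT20, 3 rested on a single probe (Tgfb1, Tgfb3 and Smad2). The 1 Tgfb1 probe above the threshold there read 2.80, 2.96, 0.77 and 1.97 on the 4 plates, and the other 2 probes averaged -0.33 and 0.17. In the same way, 1 of 3 probes carried Tgfb3 (1.58 ± 0.53, SD, n = 4 plates) and 1 of 3 carried Smad2 (1.05 ± 0.33). For Tgfbr2, 2 of 6 probes were above the threshold, the higher at 1.65 ± 0.52, and for Smad4, 2 of 3. In N18 all 3 probes were above the threshold for Tgfb1, Tgfb3, Tgfbr1, Tgfbr3, Smad2, Smad3 and Smad4.

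Against the plates labelled AtT20, BV2 differed in 7 of 9 members (77.8%), beside 73.6% of all genes and targets, so the members' share was near that background. Tgfb1 (1.03, adjusted p = 4.64e-05, limma), Tgfbr1 (0.61), Tgfbr2 (0.33) and Smad3 (0.74) were higher in BV2 after quantile normalization, and Tgfb3 (-0.55) was lower. The other 2 calls, Tgfb2 (-0.33) and Tgfbr3 (-0.43), lie between signals below the threshold in both lines, were not called on the seminal protein scale (adjusted p = 0.489 and 0.237), and are not read as a lower level. Tgfbr1 and Smad3 did not reach the AtT20 threshold either, so their AtT20 levels have only an upper bound. The lower bounds of BV2 over AtT20 were 0.87 and 0.43 on the seminal protein scale. They were -0.16 and -0.53 after quantile normalization and -0.49 and -0.93 with none, so no fold is given for Tgfbr1 or Smad3. The Tgfbr2 call was lost with the more intense of its 2 targets alone (0.25, adjusted p = 0.104), an alternative chosen after seeing the data. Tgfb1 differed by 2.07 on the seminal protein scale and by 0.71 with no normalization. Smad4 was not called (0.14), but was on the seminal protein scale (1.32, adjusted p = 7.25e-05). Of all genes and targets, 26.6% were higher in BV2 and 47.0% were lower. The arrays of 5 members did not overlap, beside 62.6% of all. Only Tgfb1 was called with the same sign under all 3 scalings. Without normalization the signs of Tgfbr1 (-0.17), Tgfbr2 (-0.019) and Smad3 (-0.43) turned, and relative to the seminal proteins that of Tgfb3 (0.52) did. The median of all genes and targets moved from -0.23 to 0.28 and -1.08 in the same comparison (quantile, seminal proteins, none), and the share of calls higher in BV2 from 36.2% to 74.2% and 13.5%. The narrower range of the AtT20 arrays moves with every member compared here, and its part was not tested. The Tgfb2 call was lost without AtT20 plate 1 or BV2 plate 2 or 3 (adjusted p 0.0709 to 0.0923).

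N18 differed from the plates labelled AtT20 in 8 of 9 members (88.9%), beside 76.4% of all genes and targets. Tgfbr1 (1.86), Tgfbr3 (1.36), Smad3 (1.23, adjusted p = 4.13e-08, limma) and Smad4 (0.42, adjusted p = 0.0232) were higher in N18 and were called with that sign under all 3 scalings. Relative to the seminal proteins these differences were 3.18, 2.48, 2.01 and 2.23 in the same order. Smad2 was not called (0.28, adjusted p = 0.0846), but was on the seminal protein scale (1.85, adjusted p = 3.13e-09) and without AtT20 plate 3 (0.41, adjusted p = 0.00861). Tgfb2, below the threshold in AtT20, was 0.34 higher, but was -0.38 without normalization. Tgfbr2 (-1.19), Tgfb1 (-0.86) and Tgfb3 (-0.56) were lower, although on the seminal protein scale Tgfb1 (0.57) and Tgfb3 (1.05) turned and the Tgfbr2 difference of -0.20 was not called. For Tgfb1 and for Tgfb3, 2 of 3 probes were higher in N18. With probes averaged as log2 values neither gene was called (-0.087 and -0.23). Of all genes and targets, 27.8% were higher in N18 and 48.6% lower, and the arrays of 6 members did not overlap, beside 68.2% of all. The median of all was -0.25, 0.54 and -0.85 under quantile scaling, seminal proteins and none, with 36.4%, 78.8% and 24% of calls higher in N18. The Smad4 call was lost without AtT20 plate 1 or 3 or N18 plate 2 (adjusted p 0.0559 to 0.0759), and the Tgfb2 call without any 1 of 5 plates (AtT20 plates 2, 3 and 4, N18 plates 1 and 2; adjusted p 0.0564 to 0.121).

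The order of the lines was thus firm for some members and not for others. Tgfb1 was highest in BV2, with N18 and AtT20 not ordered alike under the 3 scalings. Tgfbr1 and Smad3 were highest in N18, and BV2 and AtT20 changed order without normalization. For Smad3, below the threshold in AtT20, the smallest lower bound of N18 over AtT20 was -0.040 on the log2 scale. Its order between those 2 lines is therefore less firm than that of Tgfbr1. Tgfbr3 was highest in N18, with BV2 and AtT20 both below the threshold. Tgfbr2 was higher in BV2 than in N18 under all 3 scalings, and its difference between BV2 and AtT20 depended on the scaling.

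The genes whose profile over the 12 arrays was most like that of a member are named for the 5 members whose line means ranged over at least 1, out of 12171 genes above the threshold in some line. Likeness was the root mean square (RMS) difference of centred log2 values. Tgfb1 was nearest to Ripk2, a kinase of innate immune signaling (0.167), and to Hp, which encodes haptoglobin (0.183). Tgfbr2 was nearest to Mid1, a ubiquitin ligase (0.0817), and Sirpb1a, a receptor of myeloid cells (0.113). Tgfbr1 was nearest to Gmps, an enzyme of GMP synthesis (0.183), and Socs5, a suppressor of cytokine signaling (0.196). Tgfbr3 was nearest to Slco3a1, a membrane transporter (0.112), and Stox2 (0.117). Smad3 was nearest to Sh3glb1, a membrane-curving protein (0.0971), and Stau2, an RNA-binding protein (0.106).

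The other genes of the pathway were read from 9 lists with 126 genes, of which 122 were measured. Of these 122, 65 were above the threshold in N18, 65 in BV2 and 57 on the plates labelled AtT20. The shares over all genes and targets were 55.4%, 53.3% and 35.0% in the same order. Between N18 and BV2, 32 were higher in N18, 32 were lower and 58 were not called, which is 52.5% called beside 40.9% of all. Of those 64 calls, 61 kept their sign under all 3 scalings, with Furin, Strap and Map3k7 as the exceptions. Their median difference was -0.05, near the -0.06 of all genes and targets, while that of the members was 0.43. Against the plates labelled AtT20, 82% were called for BV2 (26 higher, 74 lower) and 82% for N18 (29 higher, 71 lower), beside 73.6% and 76.4% of all.

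**Figure D4:**
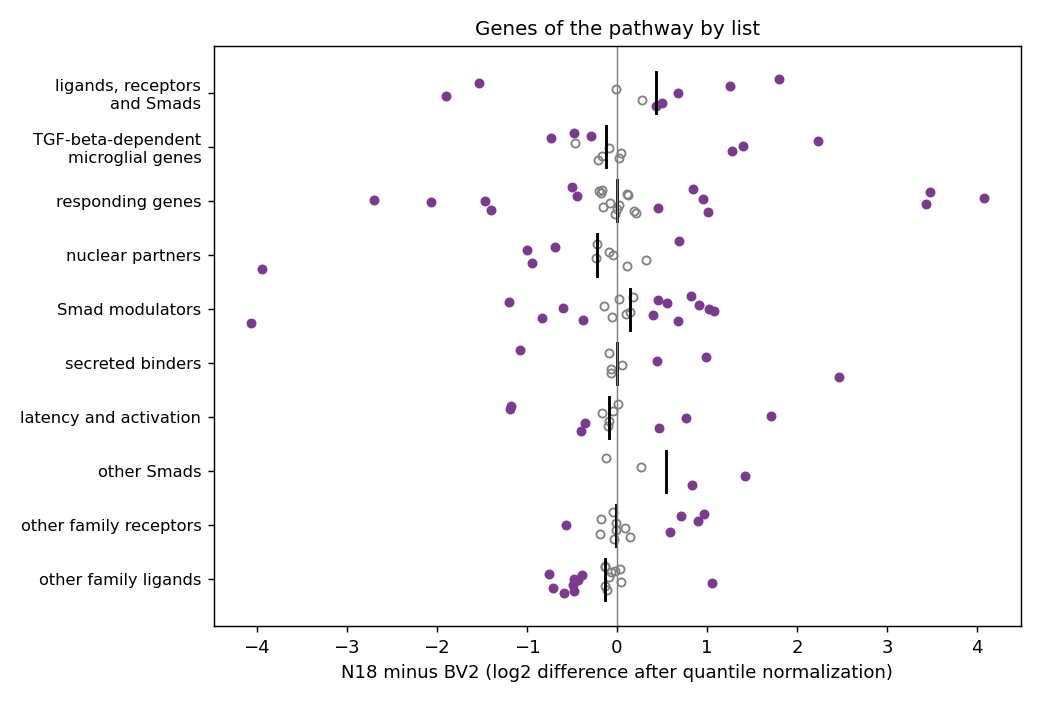
Log2 difference, N18 minus BV2, after quantile normalization (horizontal axis) for each measured gene of the members and of the 9 pathway lists. Filled points passed an adjusted p of 0.05, open grey points did not, and black bars are list medians.

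Genes known to respond to TGF-beta family signals went both ways, with 7 of 25 higher in N18, 6 lower and 12 not called. Higher in N18 were Myc, a driver of growth that TGF-beta represses in many epithelial cells (at least 14.9-fold, adjusted p = 5.09e-12, limma), Tgfbi, a matrix protein named for its induction by TGF-beta (at least 9.8-fold), and Fn1, fibronectin (at least 6.8-fold). Higher in BV2 was Junb, an AP-1 subunit (6.49-fold, a log2 difference of -2.70, or -2.03 on the seminal protein scale). Of the 19 modulators of Smad signaling, 8 were higher in N18 and 5 lower, among them Dab2, an adaptor that links the receptors to Smads, which was at least 12.9-fold higher in BV2 (adjusted p = 4.04e-14). Of the 11 nuclear partners, 1 was higher in N18 and 4 were lower. Among the 4 was Atf3, a partner of Smad3, which was 15.4-fold higher in BV2 (a log2 difference of -3.94, or -3.37 on the seminal protein scale).

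Against the plates labelled AtT20, the largest differences by the same rule were as follows. BV2 was at least 7-fold higher in Cdkn1a (the cell cycle inhibitor p21), 8.55-fold in Dab2 and at least 5.6-fold in Tgif1, a corepressor of Smads. The AtT20 level of Dab2 (0.43) lay just above the threshold of 0.37, so its fold rests on a signal near that limit. AtT20 was at least 2.5-fold higher than BV2 in Fn1, 7.69-fold in Smurf2, a ubiquitin ligase that acts on Smads and receptors, and at least 3.4-fold in Ltbp1, which tethers latent TGF-beta to matrix. N18 was at least 5.8-fold higher than AtT20 in Tgfbi, at least 3.5-fold in Cdkn1a and at least 3.9-fold in Bgn, the proteoglycan biglycan. AtT20 was at least 6.7-fold higher than N18 in Id2, 10.1-fold in Sall1 and at least 3-fold in Ltbp1. All 12 of these differences had the same sign under the 3 scalings, but the exact folds depend on the scaling: the log2 difference was 3.10 for Dab2, -2.94 for Smurf2 and -3.34 for Sall1 after quantile normalization, and 4.01, -1.90 and -2.08 on the seminal protein scale.

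The other lists are given by their calls between N18 and BV2, with genes named after their values were seen. Log2 differences are printed only for genes above the threshold in both lines, after quantile normalization and then on the seminal protein scale. Of 4 other Smads, Smad1 (0.83, 1.56) and Smad5 (1.42, 2.10), which serve the BMP receptors, were higher in N18 and none was lower. Of 13 other receptors, 4 were higher in N18, namely Bmpr1a (0.90, 1.55), Eng (0.96, 1.72), and Acvr2a and Bmpr2, which were above the threshold in N18 but not in BV2. The 1 lower in N18, Amhr2, was above the threshold in BV2 but not in N18. Of 18 other ligands, 8 were lower in N18 and Bmp7 was higher, above the threshold there but not in BV2. Of 12 genes of latency and activation, Ltbp4 (1.71, 2.47) and Itgav (0.46, 1.12) were higher in N18, as was Ltbp3, below the threshold in BV2. Nrros, which holds latent Tgfb1 on microglia, was lower in N18 (-1.19, -1.02), as was Plau, below the threshold there. Furin changed sign with the scaling (-0.40, 0.18), and the Ltbp1 call lies between signals below the threshold in both lines. Nrros and Tgfb1 were thus both higher in BV2. Of 8 secreted binders, Bgn (2.47, 3.10) was higher in N18, Fst and Fstl3 were above the threshold in N18 but not in BV2, and Nog in BV2 but not in N18. Of the nuclear partners, the 1 called higher in N18 was Sp1, below the threshold in BV2.

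Of 12 microglial genes known to depend on TGF-beta, 4 were above the threshold in BV2, 5 in N18 and 3 on the AtT20 arrays, beside 53.3%, 55.4% and 35.0% of all genes and targets. Those above it in BV2 include Tmem119 (0.98 ± 0.09, SD, n = 4 plates), Sall1 (1.49 ± 0.12) and Gas6 (0.79 ± 0.02). P2ry12 (0.32), Olfml3 (0.051), Gpr34 (-0.30), Mertk (0.27), Pros1 (-0.13), Fcrls (0.053), Siglech (0.23) and C1qa (0.55) were below it. Between N18 and BV2, 3 were called higher in N18, among them Olfml3 and Pros1, which were above the threshold in N18 but not in BV2. The 3 called lower in N18 were Sall1, above the threshold in both lines (-0.73), Tmem119, above it in BV2 but not in N18, and Siglech, below it in both. The list was chosen from general knowledge with earlier results of these data known.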

How the data were processed

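RNA of 12 plates was measured on single-color NimbleGen arrays of 60-base probes. The deposited values are log2 Cy3 intensities of 72000 probes, which the authors made without a stated background subtraction or normalization between arrays. Intensities of the probes for 1 target were averaged before the log2 was taken. Targets (25631) were named through RefSeq transcript identifiers (69.4% matched), and targets of 1 gene were averaged. Lines were compared on all 12 arrays with limma 3.58.1 in R 4.3.3 (quantile normalization, lmFit, eBayes with trend, Benjamini-Hochberg over 25128 genes and targets). A fold against a line below its threshold is the smallest lower bound over 3 scalings. Alternatives (8 for detection, 10 for comparisons, and leaving out each plate) changed the controls, the SD multiple, the averaging of probes, the normalization, the filter and the block. Named genes were all members, the 3 largest called pathway differences per pair and direction, the markers, and the 2 nearest profiles. Other names were chosen after their values were seen, and the values of a few list genes were left out. The members and lists were chosen with earlier results of these data known. On simulated data with 200 genes changed by 1 (log2), 93% (N18 minus BV2) to 95.5% (BV2 minus AtT20) were recovered among 25128. For a change of 0.5, 31.5% (BV2 minus AtT20) to 38.5% (N18 minus AtT20) were. The number of arrays, 4 a line, limits the precision. Promoters and figures used Python 3.11.15, pandas 2.3.3 and matplotlib 3.10.9.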

Additional observations from a re-analysis of the deposited data

Results flagged for a closer look

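Tgfb3 on AtT20 plate 3 stood apart from the other plates of that line, with a level of 0.33 beside 0.94 to 1.05. Tgfb3 on N18 plate 2 stood apart with a level of 2.13, beside 1.76 to 1.81 on the other N18 plates. In all, 27 groups of 4 plates were tested, 9 members in 3 lines, and chance alone sets about 1 in 20 such groups apart.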

How the results depend on the processing

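The counts of members above the threshold on the plates labelled AtT20 moved from 5 to 1 with the median of the probes, 3 with olfactory receptor genes as controls, 3 with 3 SD and 2 when at least 2 probes were required, and the Smad2 level there turned to -0.027 with the median. In BV2 the count moved from 7 to 4 with olfactory receptor genes. When a difference of at least 1 was required, 1, 4 and 4 members were called (BV2 minus AtT20, N18 minus AtT20, N18 minus BV2), beside 7102, 7883 and 2471 of all genes and targets in place of 18495, 19192 and 10270. With only the 8 arrays of the pair, 15554 were called for N18 minus BV2. For BV2 minus AtT20, signs turned without normalization (Tgfbr1 -0.17, Tgfbr2 -0.019, Smad3 -0.43, Smad4 -0.039), on the seminal protein scale (Tgfb3 0.52, Smad2 0.78), when probes were averaged as log2 values (Smad2 0.24) and with the median of the probes (Tgfb3 0.22, Smad2 0.96, Smad4 -0.22). For N18 minus AtT20 they turned without normalization (Tgfb2 -0.38), relative to the seminal proteins (Tgfb1 0.57, Tgfb3 1.05) and with the median (Tgfb1 0.24, Tgfb3 0.37). For N18 minus BV2, Tgfb3 alone turned: 0.50 without normalization, 0.53 relative to the seminal proteins, 0.026 when probes were averaged as log2 values, 0.15 with the median, and -0.049 to 0.089 over the fits that left out 1 plate, above 0 without BV2 plate 3 (0.089), N18 plate 1 (0.0090) or N18 plate 4 (0.0046). The cause of these changes was not tested. Leaving out each plate in turn gave 6 to 7, 6 to 8 and 6 to 7 called members in the same order. The replicate numbers did not pair the plates (correlations of deviations -0.11 to 0.32), and with the replicate number as a block 7, 8 and 7 members and 18427, 19127 and 10108 genes and targets were called. Tgfb1, Tgfbr1, Tgfbr2 and Tgfbr3 kept their N18 minus BV2 call under all alternatives run, either target of Tgfbr2 taken alone (chosen after seeing the data) included, but with 1 of these targets alone Tgfbr2 lost its BV2 minus AtT20 call (0.25, adjusted p = 0.104). Signal over background limits the levels near the threshold.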
